A study of Homo sapiens with 4 samples.

Results

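The genes described here are 10 members of the CEBP and CREB families of transcription factors, found by their symbols among the 13957 genes of the RNA-seq table of MDA-MB-231 Fluc cells. They are CEBPB, CEBPD, CEBPG, CREB1, CREM, ATF1, ATF2, CREB3, CREB5 and CREBRF, and all 10 were found, each once. MDA-MB-231 is a human breast cancer line of the triple-negative type, and the Fluc cells carry an added luciferase gene for imaging. The series has 4 samples, 2 exposed to 50 μM cordycepin (3′ deoxyadenosine, an adenosine analogue) and 2 exposed to the vehicle DMSO, both for 2 h, with luciferase in all of them. The labels do not say whether the duplicates were separate cultures.

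The table gives no value for any single library. For each gene it holds 1 average level as log2 CPM (counts scaled to a library of fixed size), read here as a mean over all 4 samples, together with the authors' own comparison of cordycepin with DMSO, whose values are not used here. The levels below are therefore the authors' means across treated and control cells together, with no SD and no n, and for a gene that differs between the treatments the mean describes neither group. No difference between cordycepin and DMSO was tested, library depth is unknown, and whether neighbouring genes differ beyond the spread between replicates could not be judged.

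CEBP and CREB proteins bind DNA through a basic region and pair through a leucine zipper, so that each factor works as a dimer, often with a relative. C/EBP proteins act in differentiation, inflammation and the acute-phase response. CREB, CREM and ATF1 are switched on by phosphorylation downstream of cAMP and of growth factor kinases, bind the cAMP response element (CRE) and recruit the acetyltransferases CBP and p300. They are best known for turning on genes within minutes to hours of a signal, and several of their targets are themselves transcription factors.

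Because these factors are known to bind near their own and each other's genes, the DNA before the start sites of 5 members is shown first. The stretches end just before a RefSeq start site or just before an annotated exon, except that the CREM stretch runs across a RefSeq start to the end of its CRE, and 24 bases of the CEBPG stretch lie in an exon that GENCODE annotates. The stretches were chosen after the matches in them were seen. Capitals mark matches to motifs, read on either strand. They are the CRE, whose letters are TGACGTCA, and its half-site TGACG, which is written CGTCA when it lies on the opposite strand. Matches to the TATA box were searched as TATAAA. The box known as CCAAT is seen here in its inverted form, ATTGG, and is the only motif marked in the CEBPG and CREBRF stretches. It was searched apart from the C/EBP pattern, which is described below and is in none of these stretches.
CEBPB, chr20:50190710-50190829, plus strand: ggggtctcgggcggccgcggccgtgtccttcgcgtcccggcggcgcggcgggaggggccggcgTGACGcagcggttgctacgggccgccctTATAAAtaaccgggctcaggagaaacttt
CEBPG, chr19:33373604-33373708, plus strand: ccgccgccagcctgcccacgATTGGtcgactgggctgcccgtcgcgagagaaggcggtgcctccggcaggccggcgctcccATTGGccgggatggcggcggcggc
CREB3, chr9:35732506-35732597, plus strand: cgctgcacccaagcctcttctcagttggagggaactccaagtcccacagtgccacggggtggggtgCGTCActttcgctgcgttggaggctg
CREBRF, chr5:173056239-173056351, plus strand: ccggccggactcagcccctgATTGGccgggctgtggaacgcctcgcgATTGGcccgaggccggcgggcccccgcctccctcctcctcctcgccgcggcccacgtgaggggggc
CREM, chr10:35195760-35195859, plus strand: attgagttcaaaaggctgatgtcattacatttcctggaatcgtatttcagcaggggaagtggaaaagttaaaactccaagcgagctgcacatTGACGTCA

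The sequences are from RefSeq (GRCh38.p14). Of the 10 members 8 were searched, with 20 start-site windows between them. ATF2 had no entry. Windows on chromosome 8, where CEBPD lies, were left out, so CEBPD was not searched. The CEBPB stretch holds a CRE half-site that begins 57 bases before the start and a TATA box that begins 29 bases before it. The CEBPG stretch holds a pair of inverted CCAAT boxes, at 85 and 24 bases before the start, and the CREBRF stretch has another pair, at 93 and 66 bases before it. In CREB3 an inverted half-site begins 94 bases before the RefSeq start, which is at 35732666. The CREB3 stretch ends earlier, at 35732597, just before an exon that GENCODE annotates.

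The members were first described by the counts they took up. CREB3 had a mean log2 CPM of 5.49, ATF2 had 5.34, CREB1 had 5.31 and CEBPG had 5.19. These 4 lay above the median of all genes in the table, which was 4.58. ATF1 (4.48), CREM (4.47) and CEBPB (4.43) lay just below the median, separated by steps of 0.0072 and 0.04 on the log2 scale. CREBRF (2.40), CREB5 (2.20) and CEBPD (2.04) were below the lower quartile of the table, 2.88. The 10 genes together amounted to 242 CPM when their mean log2 values were turned back to a linear scale. A log2 CPM counts reads from the whole gene, so a long mRNA collects more of them, and these values were not used to rank the members against each other.

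**Figure D1:**
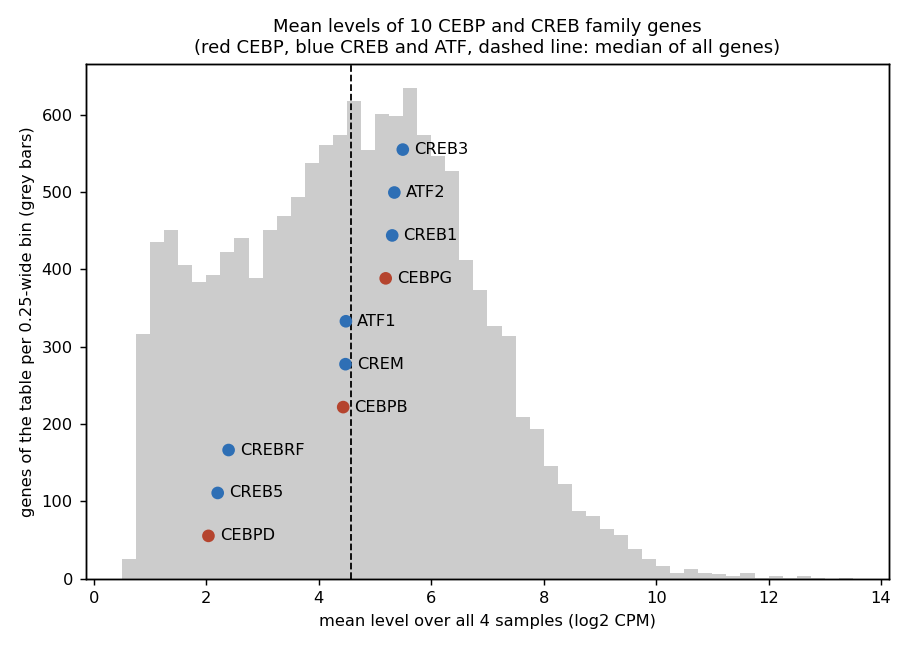
Mean level over all 4 samples (x axis, log2 CPM) of the 10 members as points, over a histogram of genes (y axis, genes per bin). The histogram holds the genes of the table with a symbol and a canonical transcript in GENCODE. The dashed line is the median of all genes. The height of a point only separates the labels. CREB3, ATF2, CREB1 and CEBPG sit to the right of the median of 4.58, ATF1, CREM and CEBPB just to its left, and CREBRF, CREB5 and CEBPD far to the left.

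To compare the genes with each other, each level was divided by the length of the canonical transcript in GENCODE (release 44). The level per kilobase of canonical transcript was highest for CREB3, at 4.91 log2 CPM per kb, and lowest for CREB5, at -0.89, a distance of 5.81 on the log2 scale. The median of the 10 members was 3.09 log2 CPM per kb and that of all genes was 3.04, and 5 of the 10 members were above the latter. The first place depended on the length used, and with the gene span, introns included, CEBPB (3.55) came before CREB3 (3.36). With the canonical length, the levels fell into 4 steps. CREB3 was alone at the top. CEBPB, CEBPG, ATF2, ATF1 and CREM followed between 2.96 and 3.55, then CREB1 and CEBPD at 1.97 and 1.71, and last CREBRF and CREB5 below 0. The widest step, of 2.28 on the log2 scale, lay between CEBPD and CREBRF. The narrowest, of 0.005, lay between CEBPG and ATF2.

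Among the C/EBP genes, CEBPB (ENSG00000172216, chromosome 20, 50190830 to 50192668, GRCh38) had a level of 3.55 log2 CPM per kb, above 59.2% of all genes. It encodes C/EBPβ, which exists in longer activating and shorter inhibitory forms made from the same mRNA. CEBPB has 1 exon of 1839 bases, and CEBPD, which encodes C/EBPδ of the acute-phase response, also has 1 exon, of 1252 bases. For these genes a single annotated transcript makes up the whole gene, so the length of the transcript and the length in the table were the same. CEBPD had a level of 1.71 log2 CPM per kb, above 27.6% of all genes.

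CEBPG (ENSG00000153879, chromosome 19, 33373685 to 33382686) had 3.29 log2 CPM per kb, above 54.5% of genes. C/EBPγ has a zipper but lacks the activation domain of its relatives, and it acts as a partner for them and for ATF4. Its coding sequence has 450 bases, which is 12.1% of a transcript of 3730 bases. The remainder of this mRNA is untranslated. With the level divided by the coding length alone, CEBPG would come first among the members, at 6.34 log2 CPM per kb.

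CREB1, CREM and ATF1 form the subfamily that answers to cAMP. CREB1 (chromosome 2, 207529737 to 207605988) had 1.97 log2 CPM per kb, the seventh place among the members. Its canonical transcript has 10095 bases, of which 9.72% are coding. ATF1 had 3.21 log2 CPM per kb from a transcript of 2412 bases. CREM had 2.96 log2 CPM per kb. The position of CREB1 below ATF1 and CREM was turned around with both of the other lengths that had been planned. With coding length CREB1 had 5.33, ATF1 had 4.78 and CREM had 4.63 log2 CPM per kb, and with the gene span they had -0.95, -1.36 and -1.95. It held only with the length of the table, which was added after seeing the data (1.70, against 2.98 for ATF1 and 1.96 for CREM).

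CREM encodes both activators and repressors, which are made by alternative splicing and from different start sites. The short repressor ICER arises from a start site inside the gene and consists of little more than the region that binds DNA. RefSeq lists 7 start-site windows for CREM (chromosome 10, 35126791 to 35212958), and the last of them starts 69056 bases after the first. GENCODE has 48 CREM transcripts, against 17 for CREB1 and 5 for ATF1. Of the 48, 8 begin at the 3 start sites farthest downstream, and their coding sequences have 285 to 375 bases, compared with 897 in the canonical transcript. Short coding sequences are not particular to these sites. Some CREM transcripts that begin near the upstream start sites have them too, with 138 or 285 bases for example. The length of CREM in the table, 5699 bases, is 2.00 times that of its canonical transcript, the highest such ratio among the members. The value of CREM is a sum over all of these transcripts, so full-length CREM and ICER cannot be told apart in it.

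The full CRE was found in CREM and in no other of the 8 members that were searched. It begins 50 bases before the last of the 7 start sites, and the window of the site before it holds the same CRE from base 3 after its start on, so these are not separate matches. Of all 35116 RefSeq windows, 1.85% hold a CRE. Among the pathway genes described below, CREB3L2 also has a window with a CRE. The half-site was found in windows of CEBPB, CREB3, CREBRF and CREM, which were 6 of the 20 windows, beside 24.6% of all windows. The 2 half-sites in the CREM window numbered 3 begin 178 and 68 bases before its start. The CRE, a palindrome, holds a half-site on each strand, and the counts of half-sites include it. The 6 windows thus include both CREM windows that hold the same CRE.

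**Figure D2:**
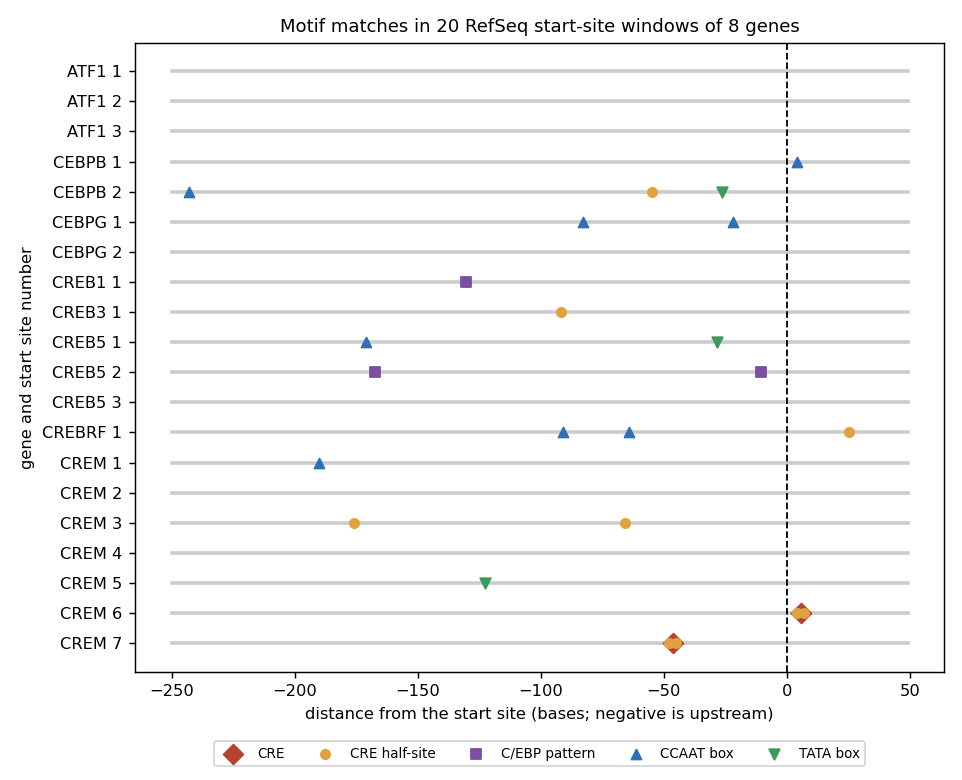
Matches to 5 motifs by distance from the start site (x axis, bases) in the 20 RefSeq start-site windows of 8 members (y axis, gene and start site numbered from upstream to downstream). The CRE appears in CREM windows 6 and 7, which overlap, and TATA boxes lie close before a start in CEBPB 2 and CREB5 1.

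A C/EBP pattern (TTGCNNAA, where N is any base) was found in CREB1, 134 bases before the start, and in CREB5, where one window has 2 matches, at 171 and 14 bases before the start. It is in 2 of the 20 windows, beside 10.5% of all windows. The CCAAT box was found in windows of CEBPB, CEBPG, CREB5, CREBRF and CREM, in 6 of the 20 windows, beside 34.6% of all. These 6 include both CEBPB windows, which overlap and hold the same box. The TATA box was found in CEBPB, CREB5 and CREM, in 3 of the 20 windows, beside 11.5% of all. It was 29 bases before the start in CEBPB and 31 bases before it in the first CREB5 window. In the fifth CREM window it lay on the other strand, 125 bases before the start. No match to any of the motifs was found in the 3 windows of ATF1. These are matches of letters, and no binding was measured.

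The windows also differed in base composition. The median GC content of all RefSeq windows was 58.7%, and those of CEBPB, CEBPG, CREB1, CREB3, CREBRF and ATF1 and the first 3 of CREM had between 66.3% and 79.7%. The other 4 CREM windows, at start sites inside the gene, had between 36.7% and 42.7%, and the 3 CREB5 windows had 41.7%, 37.3% and 50.0%.

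ATF2 and CREB5 are closely related factors that pair with JUN proteins, and ATF2 is activated by the stress kinases p38 and JNK. ATF2 (chromosome 2, 175072250 to 175168382) had a level of 3.29 log2 CPM per kb, whereas CREB5 (chromosome 7, 28299321 to 28825894) had -0.89, above 2.46% of all genes. CREB5 has the longest gene of the 10, at 526574 bases, and a canonical transcript of 8539 bases.

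CREB3 is held in the membrane of the endoplasmic reticulum and is released by cleavage, and CREBRF binds CREB3 and promotes its degradation. CREB3 (chromosome 9, 35732598 to 35736999) had 4.91 log2 CPM per kb, above 79.7% of genes, from a transcript of 1496 bases. CREBRF (chromosome 5, 173056352 to 173139284) had -0.56 log2 CPM per kb, above 4.01% of genes. The gene for the factor and the gene for its regulator thus lay in the first and the ninth place among the members per kilobase of canonical transcript.

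**Figure D3:**
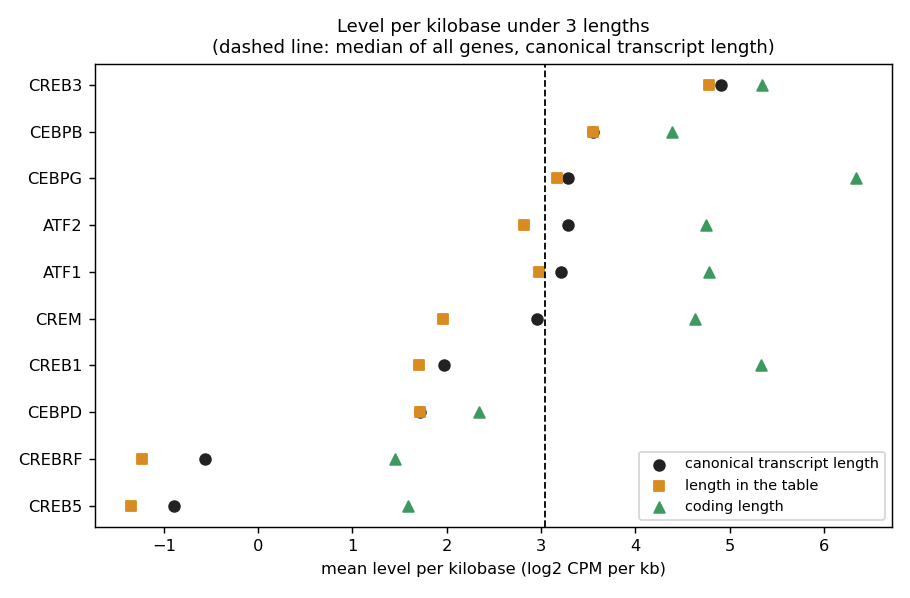
Level per kilobase (x axis, log2 CPM per kb) of each member with the level divided by the length of the canonical transcript (circles), the length in the deposited table (squares) or the coding length (triangles). The dashed line is the median of all genes, 3.04, with the canonical transcript length. CREB3 leads with the first 2 lengths, CREBRF and CREB5 are lowest with all 3, and CEBPG and CREB1 move far to the right with coding length.

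Several members share bases with other genes. In GENCODE, exons of 5 members overlap an exon of a gene on the opposite strand. The libraries were stranded, but the strand setting of the counting is not given in the sources used here. CEBPB shares 231 of its bases (12.6%) with the antisense RNA CEBPB-AS1. CREB3 shares 134 (8.20%) with GBA2, which had a mean log2 CPM of 5.67 in the table, and CREM shares 191 (3.35%) with CUL2, which had 6.21. With antisense RNAs that have no symbol, ATF2 shares 246 bases, CREM 205 and CREB1 59. On its own strand, ATF2 also shares 45 bases with an RNA gene that has no symbol. The effect of these overlaps on the levels was not tested.

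Other genes of the pathway were taken from a list of coactivators, kinases and related factors, of which 26 of 28 were measured. Levels of CEBPA and CEBPE were not analysed here. The median of the 26 was 3.65 log2 CPM per kb, and 15 of them were above the median of all genes, compared with 5 of the 10 members. All 5 coactivator genes were measured. CRTC2, which carries the calcium and cAMP signal to CREB, had 3.85 log2 CPM per kb. CRTC3 and CRTC1 had 2.65 and 2.15. The acetyltransferase genes EP300 and CREBBP had 2.54 and 2.35 log2 CPM per kb.

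Kinases that phosphorylate CREB or ATF2 spanned a wide range. PRKACA, which encodes a catalytic subunit of protein kinase A, had 5.62 log2 CPM per kb, and PRKACB, which encodes another, had 3.70. MAPK14, the gene of p38α, had 5.34. The genes of the ERK-activated kinases RSK2 (RPS6KA3) and RSK1 (RPS6KA1) had 4.25 and 3.92. MSK1 (RPS6KA5) had -1.16 with a canonical transcript of 26829 bases, and CAMK4, a calcium-dependent kinase, had -0.14.

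Among 12 related CREB and ATF genes, ATF4, the main effector of the integrated stress response, had 6.71 log2 CPM per kb. CREB3L1, a relative of CREB3 that is also held in the endoplasmic reticulum, had 5.74, and CREB3L2 and CREB3L4 had 4.23 and 1.90. ATF6B, ATF5 and ATF6 had 5.57, 4.76 and 3.74. ATF7, the other gene of the group of ATF2 and CREB5, had 0.75 log2 CPM per kb. ATF3, an early response gene, had 0.82. BATF3, CREBL2 and CREBZF had values of 3.32, 3.61 and 3.00. In the C/EBP list, DDIT3 (the stress factor CHOP) had 2.09 log2 CPM per kb. CEBPZ, whose relation to the C/EBP proteins was not checked here, had 3.91.

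**Figure D4:**
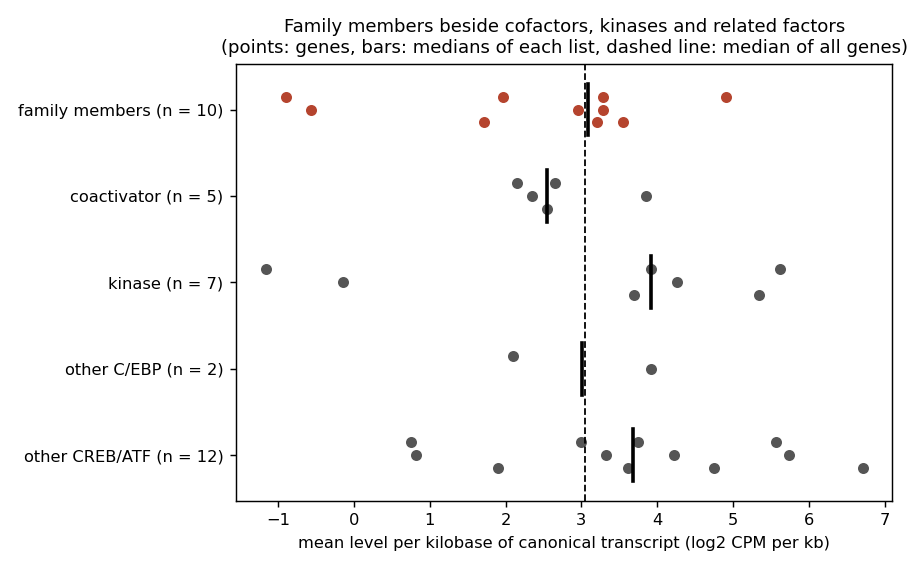
Level per kilobase of canonical transcript (x axis, log2 CPM per kb) of the 10 members and the 26 measured genes of the fixed pathway lists, 1 point per gene, with the median of each list as a bar and that of all genes as a dashed line. The members reach from -0.89 to 4.91, and ATF4, at 6.71, is the farthest to the right.

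The cell type on the labels was checked against a short marker list. The keratin genes KRT8, KRT18 and KRT19 had mean log2 CPM of 9.11, 8.12 and 8.34, and VIM and CD44, which mark the mesenchymal-like state of this line, had 10.45 and 10.57. COL1A1, a fibroblast collagen gene, had 3.36. ERBB2, a receptor gene listed for the triple-negative label, had 6.49, above 81.8% of all genes. Whether this level bears on that label was not tested. Levels of the leukocyte gene PTPRC, the endothelial gene PECAM1 and the hormone receptor genes ESR1 and PGR were not analysed here, so the check says nothing of them. As each value is a mean over treated and control samples, single libraries could not be checked against their labels.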

How the data were processed

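Total RNA of 4 samples of MDA-MB-231 Fluc cells was depleted of ribosomal RNA and sequenced as stranded 75 bp paired-end libraries. The paper's methods state mapping to GRCh38.p13 and counting with rsubread, whereas the submitters' processing notes list hg38, TopHat, HTSeq, DESeq and Cufflinks, without a version or a role. Deposited by the authors is 1 table, with an average log2 CPM, a length in bases and coordinates per gene. The column is read as a mean over all samples. How it was formed, and the filter on low counts, are not given in the sources used here. Its log2 fold change, F statistic, p-value and adjusted p-value are the authors' own comparison of cordycepin with DMSO and were not used. As no values per library are in the table, no test was made and depth is unknown.

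Rows were chosen by symbol. The genes named are the 10 members and the fixed lists of pathway and marker genes, whatever their values, and genes sharing exons with a member, which were named after their values were seen. Members and lists were chosen with earlier results of these data known. Coding length had been planned first for levels per kilobase. The canonical transcript length was taken after the table was seen, since reads also cover untranslated regions. The level per kilobase is the mean log2 CPM less log2 of the canonical transcript length in GENCODE release 44, which held 99.7% of the IDs and gave all 10 members the same start and end as the table. The length in the table equalled the union of all GENCODE exons for all 10 members and 73.7% of genes. Percentiles are the share of genes with a lower value. Motifs were searched on both strands of RefSeq windows of 250 bases before the start and 50 from it on. For the members, windows on chromosome 8 were left out, while the shares of all windows were not filtered in this way. Protein sequences were not used. The motif search and exon unions were tested on simulated data. Python 3.11.15, numpy 2.4.6, pandas 2.3.3 and matplotlib 3.10.9 were used.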

Additional observations from a re-analysis of the deposited data

How the results depend on the processing

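The count of members above the median mean log2 CPM was 4 of 10 among all genes and 4 among protein-coding genes, and fell to 2 (CREB3 and ATF2) among genes above the lower quartile of the table, a filter that raises the median and leaves out CREBRF, CREB5 and CEBPD by its construction. Per kilobase, where coding length had been planned first, 5 members were above the median of all genes with the canonical transcript length, 7 with coding length, 4 with the gene span, which put CEBPB and not CREB3 first, and 5 with the length of the table, which was added after seeing the data. The percentile of each of the 10 members by mean log2 CPM was lower among protein-coding genes, where they ranged from 9.63 to 60.5. The CRE half-site was found in 4 members, in 3 with only the 250 bases before the start, and in 2 (CEBPB and CREM) with the plus strand alone. With the plus strand alone, which was added for the other motifs after seeing the data, the CCAAT box was found in 1 member and not 5, the C/EBP pattern in 1 and not 2, the TATA box in 2 and not 3 and the CRE, a palindrome, in 1 as before. Within the 250 bases these 4 motifs were found in as many members as in the whole window. No paired analysis was possible because the table has no values per library, and for the same reason no replicate could be left out and no other normalization or filter tried. The identities of the proteins, which had been planned, were not computed.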
